A study of Mus musculus with 9 samples.

Results

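The genes described here encode heat shock proteins, the J-domain proteins that work with them, their nucleotide exchange factors and the heat shock transcription factors. They were chosen by symbol among the protein-coding genes of the count table, as symbols that start with Hspa, Hspb, Hspd, Hspe, Hsph, Hsp90a, Dnaja, Dnajb, Dnajc, Bag or Hsf followed by a digit or the letter a. Of 84 such genes, 4 that belong to the endoplasmic reticulum (Hspa5, Dnajb9, Dnajb11 and Dnajc3) were left out. The remaining 80 members are part of a table of 55414 genes, and 69 of them had enough counts to be tested among 17272 genes. RNA of mouse retina was sequenced in 9 libraries in 3 groups of 3, namely light damage with A74, light damage alone and control, all from the albino Balb/c strain. The labels spell out neither what A74 is, nor its dose and vehicle, nor what the control and light damage groups received in its place. The length and strength of the light, the time of collection and the age of the mice are likewise not given there, and the title of the series names inhibition of P2RX7, a channel opened by extracellular ATP. Replicates are numbered in the titles, but no label calls them separate animals. The p-values therefore reflect only how far these samples spread, some of which may be technical.

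Heat shock proteins are chaperones that bind unfolded protein segments, prevent aggregation and return proteins to their folded state. HSP70 proteins do so in cycles of ATP hydrolysis: J-domain proteins (the DNAJ families, also called HSP40) deliver the client and trigger hydrolysis, and HSP110 and BAG proteins release the nucleotide. The transcription factor HSF1 is held inactive in unstressed cells, and on protein damage it binds inverted GAA repeats, the heat shock elements, upstream of Hspa1a, Hspa1b and other inducible members. In the retina, chaperones handle the heavy load of folding rhodopsin and phosphodiesterase in photoreceptors, and J proteins serve clathrin and vesicle turnover at synapses.

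The sequences before the starts of 4 members are shown because the result for Hspa1b, the separation of Hspa1a from Hspa1b and the heat shock elements of the family all bear on them. Each is the 250 bases upstream of the gene's start in RefSeq's GRCm38.p6 annotation, on the strand of the gene and 5′ to 3′. Capitals mark every match to GAANNTTC or TTCNNGAA, where N is any base. Each of these motifs is its own reverse complement, so a search covers both strands, and neighbouring matches may overlap. The windows lie at chr17:34972157-34972406 on the minus strand for Hspa1a, chr17:34959239-34959488 on the minus strand for Hspa1b, chr8:83607925-83608174 on the plus strand for Dnajb1 and chr1:55087898-55088147 on the plus strand for Hspe1.
Hspa1a: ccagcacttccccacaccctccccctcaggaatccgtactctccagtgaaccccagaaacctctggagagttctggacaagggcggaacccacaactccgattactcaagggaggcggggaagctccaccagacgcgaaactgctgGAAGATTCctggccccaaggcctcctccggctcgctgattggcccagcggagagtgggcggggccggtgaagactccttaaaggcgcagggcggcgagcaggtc
Hspa1b: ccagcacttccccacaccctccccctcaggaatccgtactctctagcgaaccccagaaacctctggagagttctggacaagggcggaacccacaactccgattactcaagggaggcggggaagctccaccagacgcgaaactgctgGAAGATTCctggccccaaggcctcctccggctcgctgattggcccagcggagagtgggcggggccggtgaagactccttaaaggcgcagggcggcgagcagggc
Dnajb1: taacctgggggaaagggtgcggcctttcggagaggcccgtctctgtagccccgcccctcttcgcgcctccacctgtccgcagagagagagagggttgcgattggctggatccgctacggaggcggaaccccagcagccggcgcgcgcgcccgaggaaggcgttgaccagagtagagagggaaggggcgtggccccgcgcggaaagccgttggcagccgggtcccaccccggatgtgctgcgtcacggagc
Hspe1: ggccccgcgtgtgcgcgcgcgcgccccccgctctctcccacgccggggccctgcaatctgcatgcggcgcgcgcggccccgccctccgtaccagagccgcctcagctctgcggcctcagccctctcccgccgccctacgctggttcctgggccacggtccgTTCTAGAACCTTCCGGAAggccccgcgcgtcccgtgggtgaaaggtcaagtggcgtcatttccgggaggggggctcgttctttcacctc
Hspa1a and Hspa1b each had 1 match, starting 104 bases before the gene's start (position -104), and Hspe1 had 3 overlapping matches that start at -89, -84 and -79. Over the full window of 300 bases, which adds 50 bases after the start, Hspa1a and Hspa1b were identical at 296 positions. Written with the base of Hspa1a first and counted from 1 at the 5′ end of that window, the differences were C44T, T47C, T249G and C276T. No match was present in the window of Dnajb1, a description of those letters only. Promoter windows were at hand for 63 of the 80 members, and 14 of them (22.22%) held at least 1 match, against 15.15% of 27025 promoters of all genes. Within a list of 14 heat-inducible members (Hspa1a, Hspa1b, Hspa8, Hsph1, Hsp90aa1, Hspb1, Hspb8, Hspa4l, Dnaja1, Dnajb1, Dnajb4, Bag3, Hspd1 and Hspe1), windows were at hand for 12 and 8 of these (66.67%) held a match. In Bag3 the match lay after the gene's start, at 43, and in Hsph1 matches started at -33, 37 and 42.

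Total counts per library ran from 14787972 to 18740434. Rod markers, which define the main cell type of the retina, were abundant in every library and summed to 58900 to 61900 CPM (counts per library scaled to a common total) in the A74 libraries, 35400 to 51600 CPM after light damage alone and 60600 to 66100 CPM in control. In bulk tissue, fewer cells of a type and less RNA per cell cannot be told apart. All 12 microglia and macrophage markers rose after light damage alone, with sums of 43.7 to 63.5 CPM with A74, 144 to 259 CPM in light damage and 38.5 to 40.2 CPM in control. All 10 reactive gliosis markers rose as well, with sums of 164 to 192 CPM with A74, 444 to 633 CPM in light damage and 160 to 161 CPM in control, and so did 8 of 10 Müller glia markers, whose sums were 5100 to 5690 CPM with A74, 6300 to 6810 CPM in light damage and 5120 to 5790 CPM in control. Libraries differed within groups in 8 genes taken to mark anterior eye tissue, whose sums were 138 to 275 CPM in 5 libraries (replicate 1 with A74, and replicates 1 and 2 of light damage and control) and 12.5 to 15.9 CPM in the other 4. Y-linked counts were 4249 to 5832 in replicates 1 and 2 of light damage and control and 0 in the other 5 libraries, and Xist was high in the A74 libraries and control replicate 3 but in none of the light damage group. Lens markers were highest in A74 replicate 1, at 830 CPM, against at most 119 CPM in any other library, with Lim2 at 0 in all libraries.

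Light damage compared with control changed few members and none by 2-fold. The chaperonin partner Hspe1, the J protein Dnajb5 and the co-chaperone Bag3 rose, whereas the transcription factor Hsf2, the HSP110 protein Hspa4l, the HSP70 protein Hspa1l and 6 J proteins (Dnajb14, Dnajc5, Dnajc6, Dnajc13, Dnajc18 and Dnajc28) fell. The libraries of the 2 groups overlapped for the inducible HSP70 gene Hspa1b and for its partner Dnajb1, neither of which was called. In all, 12 of 69 members (17.4%) were called at an adjusted p under 0.05 by edgeR's quasi-likelihood test with Benjamini-Hochberg adjustment, against 25.8% of all genes tested. By direction, 3 members were higher, against 13% of all genes, and 9 were lower, against 12.8%. Log2 fold changes of the members ran from -0.92 to 0.76 with a median of 0.02, and the median of all genes was 0.01. At an adjusted p under 0.01, 3 members remained (Hspe1, Hspa4l and Hsf2), against 13.9% of all genes. An unadjusted p under 0.05 was found for 25 of 69 members, against 6454 of 17272 genes. In 31 of 69 members the light damage libraries did not overlap the control libraries (13 higher, 18 lower). Such a separation was found in 7010 of 17272 genes (40.6%), which were not split by direction. The count of called members, with the share of all genes called in brackets, was 4 without light damage replicate 2 (16%) and 4 without control replicate 1 (17%). It was 6 without light damage replicate 1 (17.7%) and 7 without control replicate 3 (19%). With light damage replicate 3 and A74 replicate 1 both left out it was 20 (33%).

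In A74 with light damage, compared with light damage alone, 8 members were higher and 1 was lower. Hspa1b, Dnajb1 and the co-chaperone Bag5, none of which was called for light damage against control, were higher with A74. Hsf2, Hspa1l and Dnajc28, which had fallen after light, were also higher, and Bag3, which had risen, was lower. Dnajb2 and Dnajb7 complete the 9 called members, which are 13% of 69, against 18.3% of all genes tested. By direction the background was 9.07% higher and 9.19% lower. This comparison shares the light damage libraries with the previous one, so that opposite signs in the 2 comparisons are not independent of each other. Separation of the libraries without overlap occurred in 22 of 69 members (17 higher, 5 lower), against 6076 of 17272 genes (35.2%), which were not split by direction. An unadjusted p under 0.05 was found for 19 of 69 members, against 5587 of 17272 genes. At an adjusted p under 0.01, Hspa1b and Dnajb1 remained, 2 members against 7.86% of all genes. The count of 9 became 2 without A74 replicate 3 (10% of all genes) and 4 without A74 replicate 2 (10.3%). It became 3 without light damage replicate 1 (9.78%) or without replicate 2 (9.84%), and 14 without light damage replicate 3 (25.4%).

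Set against control, the A74 libraries differed in 2 members, Hspa1b and Dnajb1, both higher. They are 2.9% of the 69 members, and 0.892% of all genes were called. By direction the background was 0.591% higher and 0.301% lower. At an adjusted p under 0.01, 1 member (Hspa1b) remained, against 0.162% of all genes. Members without overlap between A74 and control libraries numbered 20 of 69 (14 higher, 6 lower), against 3937 of 17272 genes (22.8%). All genes were not split by direction. An unadjusted p under 0.05 was found for 13 of 69 members, against 2742 of 17272 genes. The count of 2 became 1 without A74 replicate 2, A74 replicate 3 or any 1 of the controls (0.119% to 0.784% of all genes). It was also 1 with near-identical copies summed (0.88%). It became 4 without light damage replicate 1 (1.78%), and 6 without A74 replicate 1 (1.73%) or without light damage replicate 3 (2.34%). DESeq2 called 6 members, against 2.33% of all genes, adding Hspa8, Hspe1 and Hsph1 above control and Hspa4l below it.

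Most members stayed close to the same level in all groups. Changes of less than 1.2-fold were found in 53 of 69 members (76.8%) for light damage against control, where 61.1% of all genes stayed within that limit. The corresponding shares were 79.7% of members and 66% of all genes for A74 against light damage, and 85.5% of members and 77.8% of all genes for A74 against control. The median standard error (SE) of a member's log2 fold change was 0.075 in light damage against control, against 0.11 for all genes tested. Of the 69 members, 52 were called in none of the 3 comparisons. All genes were not counted in this way, and 25.8%, 18.3% and 0.892% of them were called in the 3 comparisons.

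**Figure D1:**
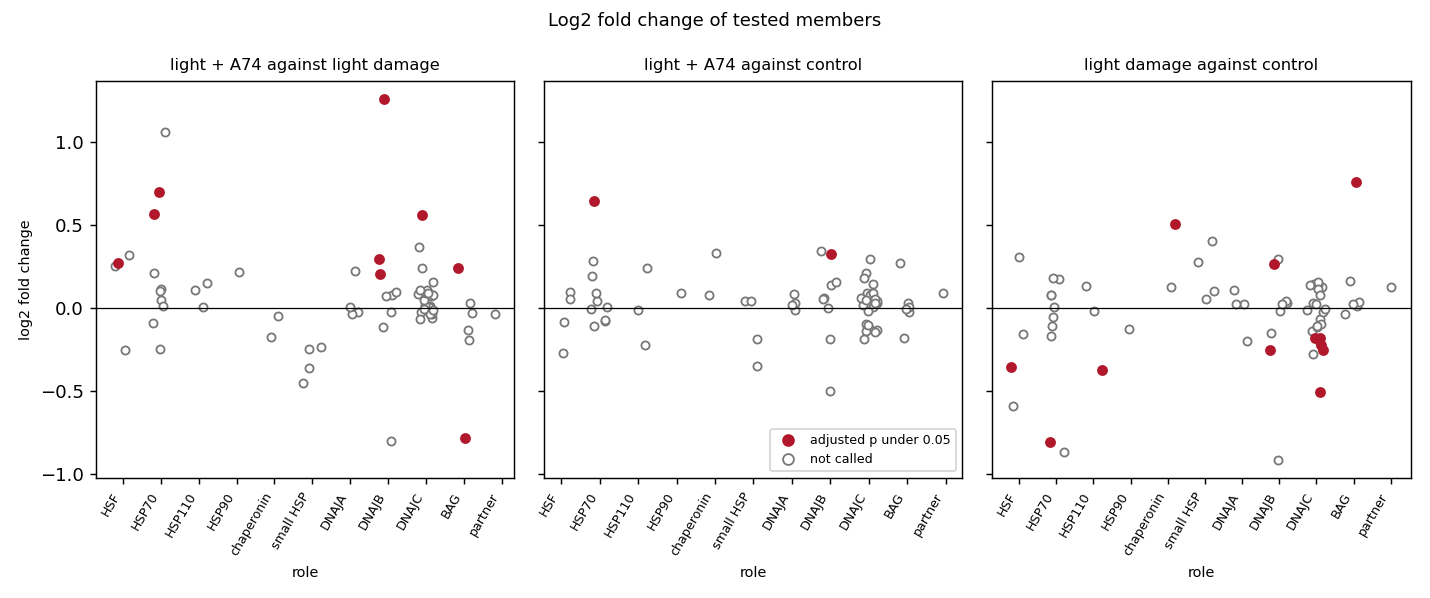
Log2 fold change of 68 of the 69 tested members (vertical axis), arranged by role (horizontal axis), in A74 with light damage against light damage, A74 with light damage against control, and light damage against control. Filled points are the 9, 2 and 12 members called at an edgeR adjusted p under 0.05, and most open points lie close to 0.

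**Figure D2:**
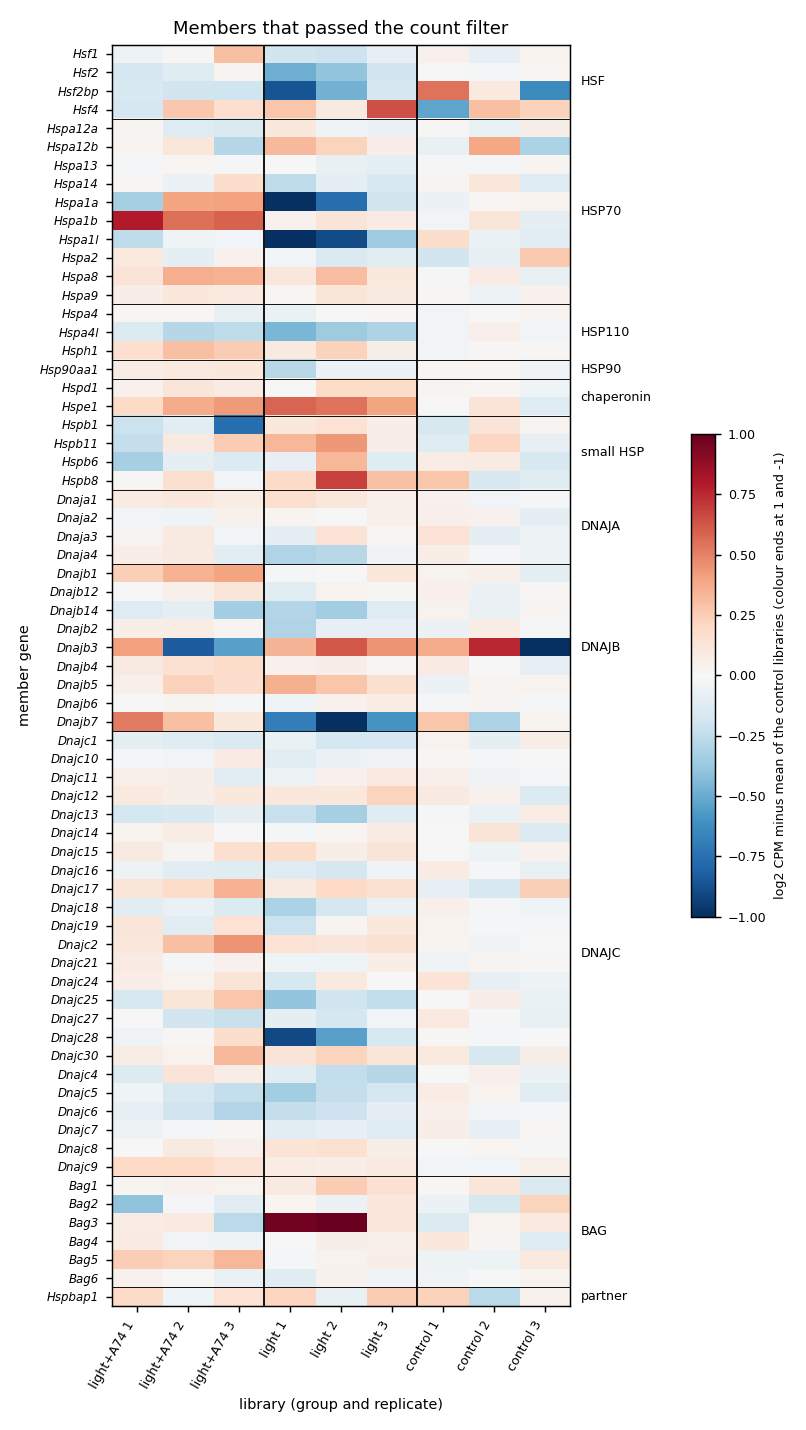
Log2 CPM of 68 tested members (rows, by role) in each of the 9 libraries (columns), less the mean of the 3 control libraries, with the colour scale ending at 1 and -1. Bag3 is high in light damage replicates 1 and 2, Hspa1b is high in the 3 A74 libraries, and Hspa1a, Hspa1l and Dnajc28 are low in light damage replicates 1 and 2.

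Of the 4 tested members with an Hsf symbol, only Hsf2 was called, 25% against 25.8% of all genes in light damage. For A74 against light damage the shares were 25% against 18.3%. The 4 include Hsf2bp, which encodes a protein that binds HSF2 and is grouped with the heat shock factors by symbol only. HSF2 is a second factor that binds heat shock elements, partly together with HSF1. Its levels were 71.0, 73.4 and 81.6 CPM with A74, 56.8, 60.8 and 69.9 CPM after light damage alone, and 80.0, 78.7 and 80.9 CPM in control. All light damage libraries lay below all control and all A74 libraries. The log2 fold change of Hsf2 after light was -0.35 (SE 0.08, edgeR adjusted p = 0.00265), a call that stayed in all 17 other settings of the fit that were tried for single members. With A74 it was 0.27 higher than in light damage (SE 0.08, edgeR adjusted p = 0.0199). Hsf1, the main activator of heat shock genes, had 40.0, 41.9 and 51.1 CPM with A74, 36.6, 35.9 and 39.2 CPM in light damage and 42.8, 39.3 and 42.5 CPM in control. The light damage values of Hsf1 were again below the others without overlap, but its log2 fold changes of -0.16 (edgeR adjusted p = 0.198) and 0.25 with A74 against light damage (edgeR adjusted p = 0.0507) were not called. The change with A74 was called in 6 of 17 other settings.

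Hspa1a and Hspa1b encode nearly the same stress-inducible HSP70 protein. Hspa1b was called in both A74 comparisons and Hspa1a in none, and the difference between them was not tested. Hspa1b had 36.7, 30.9 and 31.7 CPM with A74, 21.7, 23.0 and 22.3 CPM in light damage, and 20.7, 22.9 and 19.8 CPM in control. All A74 libraries lay above all others, and the light damage and control libraries overlapped. The log2 fold change was 0.57 (SE 0.09, edgeR adjusted p = 0.0007) against light damage, 0.65 (SE 0.09, edgeR adjusted p = 0.00268) against control, and 0.08 for light damage against control (SE 0.09, edgeR adjusted p = 0.567). For Hspa1a the values were 18.05, 30.0 and 30.1 CPM with A74, 4.03, 13.5 and 20.0 CPM in light damage, and 21.9, 23.0 and 23.4 CPM in control. Control libraries agreed closely in Hspa1a, whereas light damage replicate 1 had 67 counts against 259 and 305 counts in replicates 2 and 3. None of the changes in Hspa1a was called (A74 against light damage 1.06, SE 0.51, edgeR adjusted p = 0.216).

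The coding sequences of Hspa1a and Hspa1b are 99.43% identical in the GENCODE M21 transcripts, so the split of coding reads between them is uncertain. Their whole transcripts, untranslated ends included, are 84.35% identical. Their sum, which does not depend on that split, was 54.7, 60.8 and 61.8 CPM with A74, 25.7, 36.5 and 42.3 CPM in light damage and 42.6, 45.9 and 43.1 CPM in control. The summed level was thus highest in the A74 libraries and lowest in the light damage libraries, with no overlap between any pair of groups. A74 against light damage remained called for the sum (log2 fold change 0.76, SE 0.15, edgeR adjusted p = 0.00874). The change against control was no longer called (0.43, SE 0.15, edgeR adjusted p = 0.215), and that of light damage against control was -0.33 (SE 0.15, edgeR adjusted p = 0.142). This sum was chosen after the data had been seen.

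**Figure D3:**
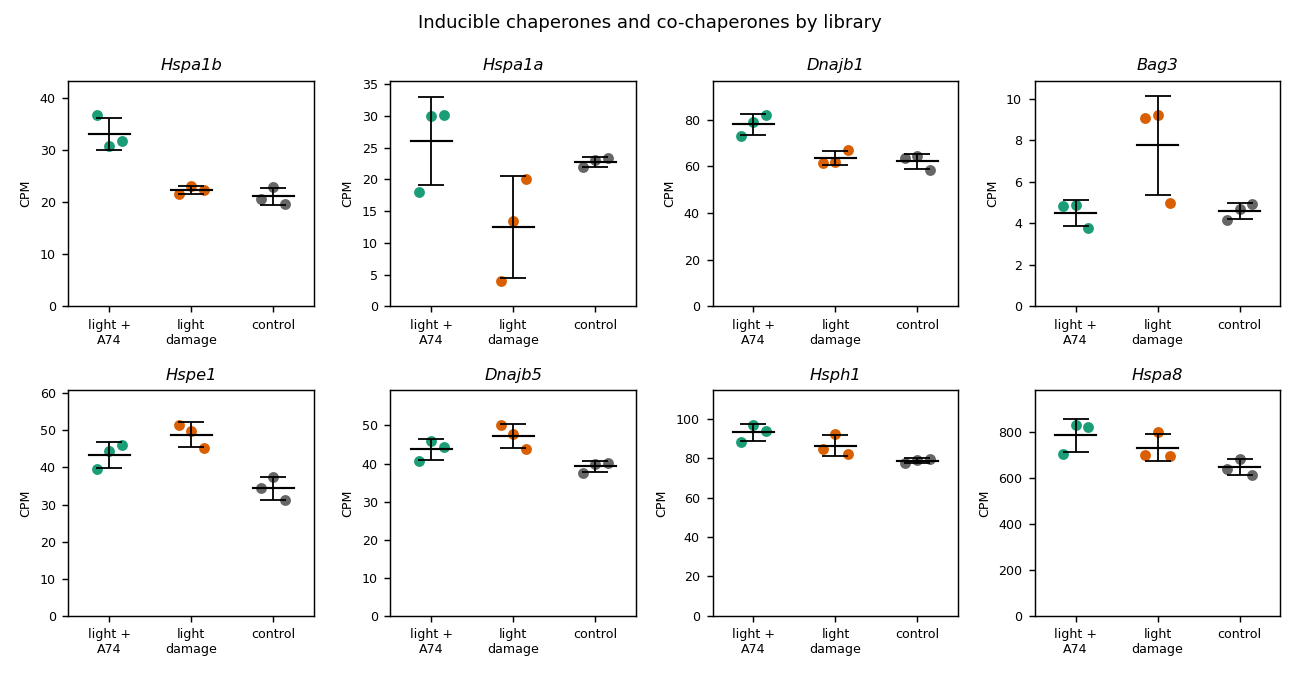
CPM (vertical axes, starting at 0) of 8 chaperones and co-chaperones in light damage with A74, light damage and control (horizontal axes), with each library as a point and the mean and SD as bars (n = 3). Hspa1b and Dnajb1 are higher in every A74 library than in any other, Bag3 is high in 2 of 3 light damage libraries, and Hspe1 is higher in all light damage libraries than in control.

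Hspa1l, an HSP70 gene best known from testis and a neighbour of the inducible pair, was low in counts. It had 3.95, 4.61 and 4.65 CPM with A74, 1.99, 2.5 and 3.67 CPM in light damage, and 5.37, 4.52 and 4.38 CPM in control. The light damage values lay below the others without overlap, and replicate 3 came closest to them. Hspa1l fell by 0.81 (SE 0.22, edgeR adjusted p = 0.0131) in light damage and was 0.70 higher with A74 (SE 0.22, edgeR adjusted p = 0.0381), and the second call was lost in 10 of 17 other settings. Its coding sequence is 82.91% identical to that of Hspa1a.

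In the edgeR fit of all 9 libraries after the count filter, Hspa8, Hspa9 and Hspa2 were called in none of the 3 comparisons. Hspa8, the abundant housekeeping HSP70 that also strips clathrin from vesicles and that the list of heat-inducible members includes, had 706, 833 and 822 CPM with A74, 700.3, 800.1 and 696 CPM in light damage and 641, 684 and 615 CPM in control. Control libraries were the lowest without overlap, yet neither light damage (0.18, edgeR adjusted p = 0.119) nor A74 (0.28, edgeR adjusted p = 0.111) was called against control. In 17 other settings, Hspa8 was called against control in 2 for light damage and in 6 for A74. Hspa9, the HSP70 of mitochondria, averaged 174 ± 2.31 CPM with A74, 173 ± 6.21 CPM in light damage and 164 ± 4.97 CPM in control (SD, n = 3 each), and was not called. Hspa2, a further HSP70 gene known from testis, averaged 6.02 ± 0.415 CPM with A74, 5.57 ± 0.245 CPM in light damage and 5.99 ± 1.02 CPM in control and was not called. Among all 10 HSP70 members, 1 was called for light damage (10% against 25.8% of all genes), 2 for A74 against light damage (20% against 18.3%) and 1 for A74 against control (10% against 0.892%).

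Of the 3 HSP110 members, which exchange nucleotide on HSP70, Hspa4l was called in light damage (33.3% against 25.8% of all genes). None was called with A74 against light damage (18.3% of all genes) or against control (0.892%). Hspa4l had 384, 346 and 354 CPM with A74, 308, 330.1 and 339.8 CPM in light damage, and 415, 437 and 414 CPM in control. Control was highest, light damage lowest, and no pair of groups overlapped. Hspa4l fell by 0.37 in light damage (SE 0.06, edgeR adjusted p = 0.000594), a call kept in all 17 other settings. With A74 it was 0.15 above light damage (SE 0.06, edgeR adjusted p = 0.116) and 0.22 below control (log2 fold change -0.22, edgeR adjusted p = 0.108), neither of which was called. Hsph1, the inducible HSP110, had 88.4, 97.0 and 93.9 CPM with A74, 84.5, 92.5 and 82.3 CPM in light damage and 77.6, 79.4 and 79.7 CPM in control. Control libraries were the lowest for Hsph1 without overlap, but the log2 fold changes of 0.13 (light damage, edgeR adjusted p = 0.122) and 0.24 (A74, edgeR adjusted p = 0.0762) against control were not called. In 17 other settings, Hsph1 was called against control in 1 for light damage and in 7 for A74. Hspa4, the constitutive member, was not called and averaged 213 ± 7.85 CPM with A74, 212 ± 6.75 CPM in light damage and 215 ± 4.23 CPM in control (SD, n = 3 each).

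**Figure D4:**
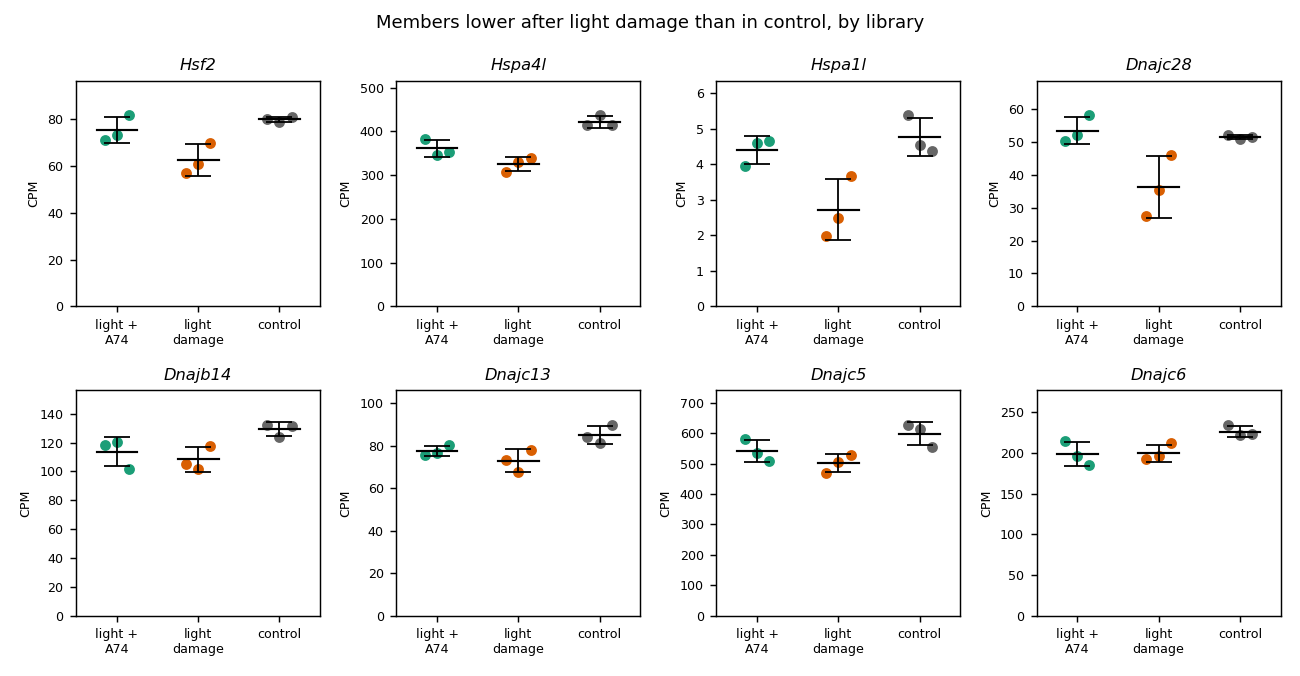
CPM (vertical axes, starting at 0) of 8 of the 9 members that fell in light damage, in light damage with A74, light damage and control (horizontal axes), with each library as a point and the mean and SD as bars (n = 3). Light damage libraries lie below control libraries in each panel, and A74 libraries overlap the control range for Hsf2, Hspa1l, Dnajc28 and Dnajc5 but not for Hspa4l, Dnajb14, Dnajc13 and Dnajc6.

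Of the cytosolic HSP90 genes, the constitutive Hsp90ab1 was called and the inducible Hsp90aa1 was not, and the difference between the genes was not tested. Hsp90aa1, the inducible form and the only HSP90 gene among the members, had 2373, 2407 and 2415 CPM with A74, 1854, 2165 and 2160.3 CPM in light damage and 2281, 2279 and 2191 CPM in control. It was lowest in light damage without overlap, but not called (-0.13 against control, edgeR adjusted p = 0.271, and 0.22 with A74 against light damage, edgeR adjusted p = 0.069). The change with A74 was called in 4 of 17 other settings. Hsp90ab1, the constitutive form, had 626, 674 and 606 CPM with A74, 783, 804 and 710.1 CPM in light damage, and 559, 557 and 563 CPM in control. The 3 groups did not overlap, and light damage was highest. Hsp90ab1 rose by 0.45 in light damage (SE 0.07, edgeR adjusted p = 0.00026) and was lower by 0.27 with A74 (log2 fold change -0.27, SE 0.07, edgeR adjusted p = 0.0131).

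Hsp90ab1 belongs to a list of 24 genes outside the symbol rule that hold HSP90, its co-chaperones and related partners. Of these, 6 rose in light damage, Hsp90ab1 and Hikeshi with the smallest p-values, and 2 fell (Sgtb and Unc45a), together 33.3% against the background of 25.8%. With A74 against light damage, Ahsa2 and Unc45a were higher and Hsp90ab1 lower, 12.5% against 18.3%. None was called for A74 against control (0.892% of all genes). Sgtb, a neuronal co-chaperone of HSP70, averaged 119 ± 13.1 CPM with A74, 98.0 ± 14.0 CPM in light damage and 146 ± 4.36 CPM in control (SD, n = 3 each; light damage against control -0.58, edgeR adjusted p = 0.00176). Hikeshi, which carries HSP70 into the nucleus, averaged 36.3 ± 0.693 CPM with A74, 38.9 ± 1.15 CPM in light damage and 31.8 ± 0.819 CPM in control (0.29, edgeR adjusted p = 0.00492). Unc45a, a chaperone of myosins, was 102 ± 3.43 CPM with A74, 85.6 ± 2.95 CPM in light damage and 102 ± 8.81 CPM in control. Its changes were -0.26 in light damage (edgeR adjusted p = 0.00743) and 0.26 with A74 (edgeR adjusted p = 0.0112). Aipl1, the photoreceptor co-chaperone needed to fold phosphodiesterase, had 694, 717 and 721 CPM with A74, 532, 638 and 667 CPM in light damage and 673, 658 and 647 CPM in control. Its light damage and control libraries overlapped, and its changes of -0.11 (edgeR adjusted p = 0.348) and 0.21 (edgeR adjusted p = 0.0653) were not called.

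**Figure D5:**
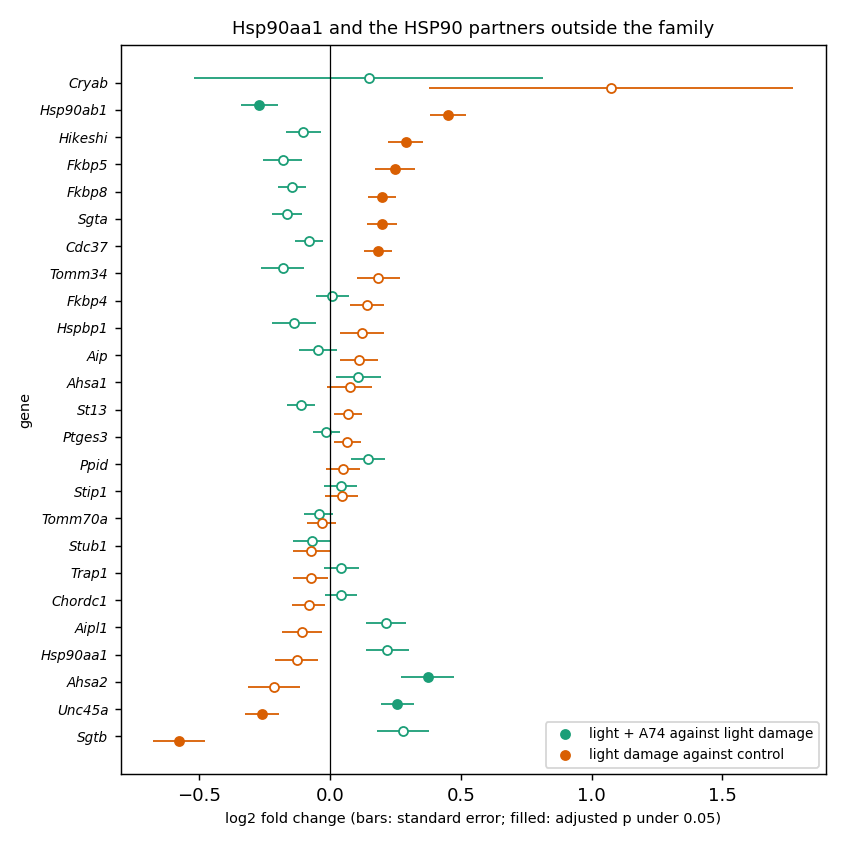
Log2 fold change with its SE (horizontal axis) of Hsp90aa1 and 24 HSP90 partners outside the symbol rule (vertical axis), for A74 with light damage against light damage and for light damage against control. Filled points were called at an edgeR adjusted p under 0.05. Hsp90ab1 is 0.45 above control after light and -0.27 with A74 against light damage, and Hsp90aa1 is called in neither.

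Among the mitochondrial chaperonins, Hspe1 rose and its partner Hspd1 was not called. HSPE1 (HSP10) forms the lid of the HSPD1 (HSP60) folding chamber, and both genes start from a shared promoter in opposite directions. Hspe1 had 39.5, 44.4 and 46.0 CPM with A74, 51.5, 49.9 and 45.1 CPM in light damage, and 34.4, 37.5 and 31.3 CPM in control. Every light damage library and every A74 library exceeded every control library, and the A74 and light damage libraries overlapped. Hspe1 rose by 0.51 in light damage (SE 0.08, edgeR adjusted p = 0.000443), a call kept in all 17 other settings. It was 0.33 above control with A74 (SE 0.08, edgeR adjusted p = 0.076) and -0.17 against light damage (edgeR adjusted p = 0.153). The difference between A74 and control, not called here, was called in 8 of 17 other settings. The part of the glial and microglial markers, whose sums were also higher in light damage than in control, was not tested for Hspe1. Hspd1 averaged 140.0 ± 3.82 CPM with A74, 145 ± 10.2 CPM in light damage and 132 ± 3.26 CPM in control (SD, n = 3 each), a change of 0.13 in light damage (edgeR adjusted p = 0.124). On the annotation at hand, the Hspe1 and Hspd1 genes overlap on opposite strands, and the use of strand in counting is not given in the sources used here.

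None of the 4 members that were grouped by symbol as small heat shock proteins and passed the filter was called. Of all genes, 25.8%, 18.3% and 0.892% were called in light damage, A74 against light damage and A74 against control. Apart from Hspb11, these proteins form oligomers that hold unfolding proteins without ATP. Hspb8, the partner of BAG3, had 8.61, 9.57 and 8.37 CPM with A74, 9.75, 13.8 and 10.5 CPM in light damage, and 10.4, 7.66 and 7.82 CPM in control. Light damage replicate 1 lay below control replicate 1, and the change of 0.40 (edgeR adjusted p = 0.0687) was not called. It was called in 5 of 17 other settings. Hspb1 (HSP27) averaged 2.80 ± 0.655 CPM with A74, 3.85 ± 0.107 CPM in light damage and 3.58 ± 0.375 CPM in control (SD, n = 3 each), with a change of 0.10 in light damage (edgeR adjusted p = 0.773). Hspb6 (HSP20) averaged 49.9 ± 4.35 CPM with A74, 59.1 ± 10.8 CPM in light damage and 56.9 ± 5.20 CPM in control. Hspb11, a subunit of the intraflagellar transport complex despite its name, averaged 11.3 ± 1.94 CPM with A74, 13.3 ± 1.69 CPM in light damage and 11 ± 1.41 CPM in control. Cryab, the αB-crystallin, is a small heat shock protein outside the symbol rule. It had 193, 48.9 and 33.4 CPM with A74, 97.1, 90.0 and 61.3 CPM in light damage, and 35.0, 50.4 and 32.4 CPM in control. The high A74 value is that of replicate 1, the library highest in lens markers, and the change of 1.07 in light damage (edgeR adjusted p = 0.325) was not called. The part of lens RNA in these values was not tested.

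In the DNAJB group, 3 of 9 tested members (33.3%) were called with A74 against light damage, all of them higher. Of all genes, 18.3% were called in either direction and 9.07% were higher. In light damage, 1 rose and 1 fell, 22.2% against 25.8%. Dnajb1, the main inducible partner of HSP70, had 73.1, 79.1 and 81.8 CPM with A74, 61.6, 61.8 and 67.2 CPM in light damage, and 63.6, 64.4 and 58.4 CPM in control. All A74 libraries lay above all others, and light damage and control libraries overlapped. Its log2 fold change was 0.30 against light damage (SE 0.07, edgeR adjusted p = 0.00572), called in all 17 other settings, and 0.33 against control (SE 0.07, edgeR adjusted p = 0.0279), called in 11 of 17. Light damage against control gave 0.03 (edgeR adjusted p = 0.781). Dnajb2, a J protein of neurons that sorts clients to the proteasome, had 118, 119 and 115 CPM with A74, 91.6, 107 and 106 CPM in light damage, and 108, 119 and 112 CPM in control. The light damage values of Dnajb2 lay below the others without overlap, and the change with A74 was 0.21 (SE 0.06, edgeR adjusted p = 0.0328).

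Dnajb7, a J protein gene with few counts that lies within Xpnpep3 on the other strand, had 20, 18 and 14 counts with A74, 8, 7 and 8 counts in light damage and 15, 11 and 13 counts in control. The light damage counts were the lowest without overlap. The change of Dnajb7 with A74 was 1.26 (SE 0.38, edgeR adjusted p = 0.0283), the one called member change past 2-fold, and it was called in 9 of 17 other settings.

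Dnajb5, a further relative of Dnajb1, rose in light damage. It had 40.7, 45.9 and 44.4 CPM with A74, 50.2, 47.7 and 43.9 CPM in light damage, and 37.6, 40.0 and 40.2 CPM in control, a change of 0.27 (SE 0.07, edgeR adjusted p = 0.0126). Control libraries were the lowest without overlap, and the A74 and light damage libraries overlapped. Dnajb14, a J protein of the endoplasmic reticulum membrane, fell by 0.26 (SE 0.07, edgeR adjusted p = 0.0135), with 118, 120.5 and 102 CPM with A74, 105, 102 and 118 CPM in light damage and 132, 124 and 132 CPM in control. Control was highest, and A74 and light damage overlapped. Dnajb4, a cytosolic HSP40, averaged 88.8 ± 2.84 CPM with A74, 83.0 ± 1.33 CPM in light damage and 80.6 ± 4.62 CPM in control (SD, n = 3 each). Dnajb6, which suppresses aggregation, averaged 141 ± 2.21 CPM with A74, 143 ± 5.57 CPM in light damage and 141 ± 2.13 CPM in control, and neither gene was called.

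The DNAJA group showed no call among its 4 members in any comparison, against 25.8%, 18.3% and 0.892% of all genes. Dnaja1, a farnesylated partner of HSP70, averaged 246 ± 2.42 CPM with A74, 250.1 ± 9.41 CPM in light damage and 232 ± 6.2 CPM in control (SD, n = 3 each). All 3 light damage values of Dnaja1 exceeded all 3 control values, with a change of 0.11 (edgeR adjusted p = 0.163). With DESeq2 the count was also 0 in each comparison, against 21.1%, 16.3% and 2.33% of all genes. At an unadjusted edgeR p under 0.05 there was 1 of 4 members for light damage against control, against 6454 of 17272 genes. There was 1 for A74 against light damage, against 5587 genes, and 0 for A74 against control, against 2742 genes.

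Among 24 tested DNAJC members, J proteins with specialised tasks, 5 fell and none rose in light damage. The 5 calls are 20.8% of the group, against 25.8% of all genes called, 13% higher and 12.8% lower. Dnajc5, the cysteine string protein that guards synaptic vesicle fusion, had 580.4, 535 and 507 CPM with A74, 469, 505 and 528 CPM in light damage, and 627, 612 and 554 CPM in control. Its light damage libraries lay below the control libraries and overlapped the A74 libraries, and the change was -0.26 (SE 0.07, edgeR adjusted p = 0.0174). Dnajc6, the auxilin that recruits HSC70 to clathrin coats, had 214, 197 and 185 CPM with A74, 192, 196 and 212 CPM in light damage, and 234, 221 and 223 CPM in control (-0.18, SE 0.06, edgeR adjusted p = 0.044). With the replicate number as a block, the call of Dnajc6 was lost (edgeR adjusted p = 0.0535). Light damage and A74 libraries of Dnajc6 overlapped, and all lay below control. Dnajc13, an endosomal J protein that acts in retromer sorting, averaged 77.4 ± 2.37 CPM with A74, 72.9 ± 5.25 CPM in light damage and 85.1 ± 4.25 CPM in control (SD, n = 3 each; -0.22, edgeR adjusted p = 0.0173). Dnajc18 averaged 128 ± 3.22 CPM with A74, 121 ± 10.3 CPM in light damage and 137 ± 4.66 CPM in control (-0.18, edgeR adjusted p = 0.0387).

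Dnajc28 varied widely among the light damage libraries. It had 50.2, 52.0 and 58.0 CPM with A74, 27.5, 35.3 and 46.1 CPM in light damage, and 52.0, 50.9 and 51.4 CPM in control. The light damage values of Dnajc28 lay below all others, and replicate 3 was close to them. The change was -0.51 in light damage (SE 0.16, edgeR adjusted p = 0.0449) and 0.56 with A74 against light damage (SE 0.16, edgeR adjusted p = 0.0399), called in 9 and 8 of 17 other settings. It was the one DNAJC member of 24 called for A74 against light damage (4.17% against 18.3% of all genes). None was called for A74 against control (0.892% of all genes). Light damage replicate 1, the library with the lowest rod marker sum (35400 CPM), was the lowest of its group for 7 of the 9 members that fell in light damage (Hsf2, Hspa1l, Hspa4l, Dnajc5, Dnajc6, Dnajc18 and Dnajc28). For Dnajb14 and Dnajc13 the lowest was replicate 2. Replicate 3, with the highest rod sum of the group (51600 CPM), was the highest for all 9, a pattern noticed after the values were seen. The part of rod RNA in these changes was not tested.

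The BAG proteins release nucleotide and client from HSP70. Bag3, which pairs HSP70 with small heat shock proteins in selective autophagy, had 4.85, 4.90 and 3.79 CPM with A74, 9.08, 9.21 and 4.98 CPM in light damage, and 4.17, 4.71 and 4.92 CPM in control. Light damage replicates 1 and 2 were far above all other libraries, whereas replicate 3, at 76 counts, was close to the highest control and A74 libraries. Bag3 rose by 0.76 in light damage (SE 0.21, edgeR adjusted p = 0.0145) and was -0.78 with A74 against light damage (SE 0.21, edgeR adjusted p = 0.0171). Without light damage replicate 1, edgeR's adjusted p was 0.0588 for light damage and 0.075 for A74, and without replicate 2 it was 0.0842 and 0.0964, so both calls were lost in each case. Light damage replicate 3 was also the light damage library with the lowest microglial sum, 144 CPM, the lowest reactive gliosis sum, 444 CPM, and low in anterior tissue genes. The part of these in the Bag3 values was not tested. A transcript on the same strand, 2610306O10Rik, overlaps Bag3 on the annotation at hand.

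Bag5, an exchange factor with several BAG domains, had 47.4, 46.8 and 50.4 CPM with A74, 39.5, 40.9 and 41.8 CPM in light damage, and 38.5, 38.7 and 42.9 CPM in control. All A74 libraries lay above all others, with a change of 0.24 against light damage (SE 0.07, edgeR adjusted p = 0.021) and 0.27 against control (SE 0.07, edgeR adjusted p = 0.0789). Bag1, which links HSP70 to the proteasome, averaged 63.3 ± 0.290 CPM with A74, 69.4 ± 4.07 CPM in light damage and 61.9 ± 5.64 CPM in control (SD, n = 3 each) and was not called.

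Taking the 14 heat-inducible members as a list, 2 rose (Hspe1 and Bag3) and 1 fell (Hspa4l) in light damage, 21.4% against the background of 25.8%, with a median log2 fold change of 0.10, against 0.01 for all genes. With A74 against light damage, 2 were higher (Hspa1b and Dnajb1) and 1 lower (Bag3), 21.4% against 18.3% of all genes, with a median of 0.10, against 0.00 for all genes. With A74 against control, the same 2 were higher and none was lower, 14.3% against 0.892% of all genes, with a median of 0.12, against 0.00. Summed with Hspa1a, Hspa1b was not called against control (edgeR adjusted p = 0.215). The call of Dnajb1 against control was lost in 6 of 17 other settings. The list was written with earlier results of these data known.

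For the cytosolic chaperonin TRiC and its helper prefoldin, 3 of 14 genes rose in light damage (Cct2, Cct8 and Pfdn1) and 1 fell (Vbp1), 28.6% against 25.8% of all genes. None of the 14 was called with A74 against light damage (18.3% of all genes) or control (0.892%). Cct2, a TRiC subunit, averaged 144 ± 5.59 CPM with A74, 147 ± 7.03 CPM in light damage and 125 ± 2.62 CPM in control (SD, n = 3 each; 0.24, edgeR adjusted p = 0.0057). Of 13 mitochondrial import and protease genes, Spg7 and Timm44 fell in light damage, 15.4% against 25.8% of all genes called (12.8% lower). Lonp1, Spg7 and Timm44 were higher with A74 than in light damage, 23.1% against 18.3% called (9.07% higher). Spg7, a subunit of the inner membrane protease, averaged 125 ± 2.03 CPM with A74, 104 ± 10.6 CPM in light damage and 139 ± 6.90 CPM in control (light damage -0.42, edgeR adjusted p = 0.000366; A74 against light damage 0.27, edgeR adjusted p = 0.0121). Of 14 chaperones of the endoplasmic reticulum, including the 4 left out of the family, Dnajb9 and Sdf2l1 rose in light damage. They are 14.3%, against 25.8% of all genes called and 13% higher. Creld2 and Hyou1 were higher with A74 than in light damage (14.3%, against 18.3% of all genes called and 9.07% higher). Dnajb9, a J protein induced by the unfolded protein response, averaged 53.4 ± 2.07 CPM with A74, 57.6 ± 3.15 CPM in light damage and 46.1 ± 4.0 CPM in control (0.32, edgeR adjusted p = 0.00448). Rbm3, a protein induced by cold, averaged 111 ± 5.37 CPM with A74, 126 ± 3.18 CPM in light damage and 110.5 ± 8.29 CPM in control (light damage 0.18, edgeR adjusted p = 0.0358; A74 against light damage -0.18, edgeR adjusted p = 0.0493), and Cirbp was not called.

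Since libraries differed in anterior tissue genes, the effects were also fitted within the 5 libraries high and the 4 libraries low in them. The high set holds 1 A74, 2 light damage and 2 control libraries, and the low set 2 A74, 1 light damage and 1 control library, so that a lone library was assumed to vary like the others. For light damage against control, 18 members were called within the high set, against 31.8% of all genes, and 2 within the low set, against 6.39%. For A74 against light damage, 12 members were called within the high set, against 18.5% of all genes, and 1 within the low set, against 3.92%. Hspe1 was 0.49 higher in light damage in the high set and 0.53 in the low set, and Hspa4l was -0.42 and -0.29. Bag3 was 1.04 in the high set and 0.02 in the low set, where light damage replicate 3 is the only light damage library. For A74 against light damage, Hspa1b was 0.71 higher in the high set and 0.49 in the low set, and Dnajb1 0.24 and 0.26. Since some groups hold a lone library within a set, a lack of calls cannot show that the effects were alike in both sets. With edgeR, 0 members were called for a difference between the sets in either comparison, against 1.17% and 1.13% of all genes. DESeq2 also called 0. With no count filter, 1 member was called for light damage, Dnajc28 (-0.56, edgeR adjusted p = 0.012).

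Leaving out 1 library at a time showed which calls stayed with fewer libraries. It also changes the estimate of spread that the groups share and the calls over all genes. For light damage against control, 16% of all genes were called without light damage replicate 2 and 30.8% without replicate 3, against 25.8% with all libraries. A lost call therefore need not rest on the library left out. The light damage calls of Hsf2, Hspa4l and Hspe1, and the calls of Hspa1b and Dnajb1 for A74 against light damage, stayed whichever library was left out. Of the other light damage calls, Dnajb5 was lost without light damage replicate 1 (edgeR adjusted p = 0.052) and control replicate 1 (0.0609), and Bag3, beside the light damage libraries named above, without control replicate 1 (0.0677). Hspa1l was lost without light damage replicate 1 (edgeR adjusted p = 0.0659), light damage replicate 2 (0.0614) and control replicate 1 (0.0658). Dnajc5 was lost without light damage replicates 1 and 2 (edgeR adjusted p = 0.0717 and 0.0647) and control replicates 1 and 2 (0.0999 and 0.0646). Dnajb14 was lost without light damage replicates 1 and 2 (edgeR adjusted p = 0.0574 and 0.0991) and control replicates 1 and 3 (0.0678 and 0.0558), and so was Dnajc13 (0.0514 and 0.128, and 0.0521 and 0.0896). Dnajc6 and Dnajc18 were lost without A74 replicate 2 (edgeR adjusted p = 0.0839 and 0.0694) and without any of light damage replicates 1 and 2 or the controls (from 0.0746 to 0.181 for Dnajc6, from 0.0595 to 0.228 for Dnajc18). Dnajc28 was lost without any library other than light damage replicates 1 and 3 (edgeR adjusted p from 0.0668 to 0.149).

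For A74 against light damage, Bag3 was also lost without A74 replicate 3 (edgeR adjusted p = 0.0828). Bag5 was lost without A74 replicate 3 (edgeR adjusted p = 0.0867) and light damage replicates 1 and 2 (0.0906 and 0.0719). Hsf2 was lost without A74 replicates 2 and 3 (edgeR adjusted p = 0.0549 and 0.108) and light damage replicates 1 and 2 (0.106 and 0.0872). Dnajb2 was lost without any A74 library (edgeR adjusted p from 0.0663 to 0.118) and without light damage replicate 1 (0.185). Dnajb7 was lost without any A74 library (edgeR adjusted p from 0.0523 to 0.0882) and light damage replicates 1 and 2 (0.0816 and 0.12). Hspa1l was lost without A74 replicates 2 and 3, light damage replicates 1 and 2 and control replicates 1 and 2 (edgeR adjusted p from 0.0505 to 0.167), and Dnajc28 without any library other than light damage replicates 1 and 3 (from 0.0658 to 0.137). Against control, Dnajb1 was lost without A74 replicates 2 and 3 (edgeR adjusted p = 0.169 and 0.141) and without any control library (from 0.0838 to 0.103), and Hspa1b was not.

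Sex-linked transcripts followed the groups in part, since Xist was high in every A74 library and low in each light damage library. With presence of Y-linked counts as a term, 2 members stayed called for A74 against light damage, Hspa1b and Dnajb1, against 9 without the term. Of all genes, 745 of 17272 were called. No A74 library had Y-linked counts, and light damage replicate 3, the only light damage library without them, had an Xist count of 1. No light damage library thus resembled the A74 libraries in both, so sex-linked transcripts and A74 cannot be told apart in this comparison. For A74 against control the fit with the Y-linked term called Hspa1b and Hspe1, against 0.556% of all genes. For light damage against control it called the same 12 members, against 28% of all genes.

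Summed over all 80 members, the CPM were 8367, 8472 and 8420.3 with A74, 7462, 8064 and 8022 in light damage, and 8319.6, 8276 and 8025 in control. The light damage libraries overlapped control, and the A74 libraries lay above all others, the lowest of them close to the highest control. Abundant members weigh most in this sum, which was not tested. Hsp90aa1 alone averaged 2398 CPM with A74, 2060 CPM in light damage and 2250 CPM in control, and it was not called. The sum therefore does not show a rise of most members. The 11 members below the count filter were Dnajb8, Dnajb13, Dnajc5b, Dnajc5g, Dnajc22, Hsf3, Hsf5, Hspb2, Hspb3, Hspb7 and Hspb9. Dnajc5g was at 0 in every library, and the others reached at most 9 counts in any library, too few to compare the groups at this depth.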

How the data were processed

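RNA of 9 mouse retina libraries was sequenced, 3 per group, with groups and replicate numbers taken from the titles. The authors deposited a table of whole-number read counts per gene, not normalised, as judged from the values. Per the submitters' processing notes, RSEM 1.3.1, Bowtie2, DESeq2 1.4.5 and the build GRCm39 were involved, in roles not stated there, and strand use in counting is not given in the sources used here. If reads of near-identical copies were divided by estimation, their separate counts are uncertain. Of the tested members, 1 is not reported here by name or in the figures, and it is included in the counts.

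Counts were filtered with filterByExpr of edgeR (minimum count 10), scaled by TMM and tested in 1 fit of all 9 libraries with the robust quasi-likelihood test (edgeR 4.0.16, limma 3.58.1, R 4.3.3), with Benjamini-Hochberg adjustment over all 17272 genes and a call at an adjusted p under 0.05. SE was taken as the absolute log2 fold change over the root of F. CPM values carry TMM factors, and log2 CPM used a prior count of 2. The test was checked on simulated counts. Totals of 14787972 to 18740434 counts set the precision, and low genes such as Dnajb7 rest on few counts. Alternatives were DESeq2 1.42.0 or its size factors in edgeR, no filter, fitting only the 2 groups compared, a replicate block, Y-linked counts or tissue set as a term, left-out libraries and an adjusted p under 0.01. For light damage against control, deviations of libraries with the same number in their titles correlated at 0.12, 0.25 and 0.31. Light damage replicate 1 and control replicate 2, with unlike title numbers but the library names LD_2 and CTRL_2, correlated at 0.13. Light damage replicate 2 and control replicate 3, named LD_3 and CTRL_3, correlated at -0.21. The A74 libraries are named LD_A74_2, LD_A74_5 and LD_A74_6, and the replicate block used the title numbers. Replicates 1 and 2 of both groups also share high anterior tissue genes and Y-linked counts. The numbers are therefore not shown to be pairs, nor do they pair the A74 libraries with either group. Named members are the called ones with a mean of at least 1 CPM, a fixed list of 26 members, and up to 4 genes of each outside list. Members, lists and tests were chosen with earlier results of these data known. Promoters come from RefSeq on GRCm38.p6, an older build than that of the counts, and overlaps from GENCODE M21.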

Additional observations from a re-analysis of the deposited data

How the results depend on the processing

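For light damage against control, 12 members were called, and 10 to 13 under DESeq2's size factors, no count filter, DESeq2, the 2 groups alone, the Y term, the tissue set term and summed copies. At an adjusted p under 0.01 there were 3 (Hsf2, Hspa4l and Hspe1). Leaving out 1 library gave 4 (without light damage replicate 2 or control replicate 1) to 15 (without light damage replicate 3), with 6 without light damage replicate 1 and 7 without control replicate 3. Without both light damage replicate 3 and A74 replicate 1 there were 20. Of all genes, 14.9% to 28.5% were called under the settings named first and 13.9% at an adjusted p under 0.01. The share was 16% to 30.8% with 1 library left out and 33% with both left out. For A74 against light damage, 9 members were called, 2 at an adjusted p under 0.01, 2 with the Y term, 12 with no count filter and 6 to 11 under the other settings of the full set of libraries. Leaving out 1 library gave 2 (without A74 replicate 3) to 14 (without light damage replicate 3). It gave 4 without A74 replicate 2 and 3 without light damage replicate 1 or replicate 2. Of all genes, 7.86% were called at an adjusted p under 0.01, 4.31% with the Y term and 11.3% with no count filter. The share was 14.8% to 19.5% under those other settings and 9.78% to 25.4% with 1 library left out. For A74 against control, 2 members were called, 1 at an adjusted p under 0.01, 7 with no count filter, 6 with DESeq2, 7 with the 2 groups alone and 1 with copies summed. Leaving out 1 library gave 1 (without A74 replicate 2, A74 replicate 3 or any control) to 6 (without A74 replicate 1 or light damage replicate 3). It gave 4 without light damage replicate 1, and 9 without both light damage replicate 3 and A74 replicate 1. Of all genes, 0.162% were called at an adjusted p under 0.01, 2.27% with no count filter and 2.33% with DESeq2. The share was 3.33% with the 2 groups alone and 0.88% with copies summed. It was 0.119% to 2.34% with 1 library left out and 5.32% with both left out. For the difference of effects between tissue sets, 0 members were called, and 1 with no count filter (Dnajc28). Of all alternative values of named members, 1430 kept their side of the threshold, 50 passed it and 100 fell below it, and no called value changed sign; the causes were not tested. With the replicate number as a block, 11, 11 and 2 members were called in the same order of comparisons. The shares of all genes called were 26.6%, 19.5% and 0.787%. For light damage against control, where the numbers are not shown to be pairs, the block ended the call of Dnajc6 only and added none. The A74 libraries share only a title number with the others (correlations of deviations from -0.09 to 0.14). There the block added the calls of Hsf1 (0.25, edgeR adjusted p = 0.0325) and Dnajc25 for A74 against light damage. Summing copies, and alternatives for the difference between tissue sets, were chosen after seeing the data. With 3 libraries a group and a median SE of 0.075, small changes cannot be resolved, and members with few counts less so.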
